A study of Homo sapiens with 6 samples.

Results

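The 7 genes described here act in or around pre-mRNA splicing, except that ZRSR1 is listed as a pseudogene copy of a gene that does. They are CLK1, CCNL1, PNN, SFRS18, RSRC2, ZRSR1 and BUD31, and they were chosen as the rows with these symbols in the authors' deposited table of 405 genes selected for a difference between the arrays labelled Gli3T and those labelled empty vector. Each symbol stood on 1 row with 1 probe set, and all 7 probe sets had values in the complete table of 32321 probe sets. All 7 were lower in the arrays labelled Gli3T, by 1.63-fold to 1.98-fold. Of all probe sets, 62.6% had a difference below 0. Among the named rows with values, 136 were lower and 262 higher. Because the genes were chosen on this very contrast and with earlier results known, their differences are given as a description and carry no test.

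The cells were Panc-1, a long-established human line derived from a carcinoma of the pancreatic duct. Those labelled Gli3T received pCIG-Gli3T, which expresses Gli3T, a dominant-negative repressor of the Gli transcription factors of the hedgehog pathway, and the controls received the empty pCIG vector. Both groups were transfected transiently with a lipid reagent and sorted for GFP after 24 h, so all samples share 1 line, the transfection and the sort, and each group had 3 Affymetrix arrays. The labels do not say whether separate cultures were used for the arrays of a group. Replicate spread here may therefore be technical, and 3 arrays per group set the precision.

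GLI3 was read first as a check of the labels. Its probe set (8139212) had log2 values of 8.00, 7.92 and 7.71 in the arrays labelled Gli3T, against 9.20, 9.12 and 9.31 in those labelled empty vector. The gene was thus lower in the arrays whose label names its derivative, and the position of its probes was not known here. Every direction below rests on the labels. PTCH1, the hedgehog receptor and a Gli target, was higher, at 9.02 ± 0.12 in the arrays labelled Gli3T and 8.11 ± 0.17 in those labelled empty vector (SD, n = 3 each). From the labels, a Gli target would be expected lower under the repressor, and GLI3 higher if its probes read the construct. Neither was seen, so the check did not bear out the labels, and the reason was not tested. Of 10 ductal and epithelial markers only ITGB4 had a named probe set. It read 10.37 ± 0.05 in the arrays labelled Gli3T and 9.58 ± 0.08 in those labelled empty vector (SD, n = 3 each). The other epithelial markers and those of fibroblasts, leukocytes and endothelium were not analysed here. Empty vector replicate 1 stood apart from the other arrays. Within their groups the arrays labelled Gli3T correlated at 0.995 to 0.997 over all probe sets, whereas that array correlated at 0.981 to 0.985 with its group and replicates 2 and 3 at 0.991 with each other. Its lower quartile was 7.12 log2, against 6.91 to 6.98 in the other 5 arrays. The median difference over all probe sets was -0.05 log2. In bulk RNA, fewer cells expressing a gene and less RNA per cell cannot be told apart.

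Splicing removes introns from pre-mRNA through the spliceosome, a machine of small nuclear RNAs and proteins that is assembled anew on each intron. SR proteins, named for their arginine-serine repeats, help it to recognise exons, and their location and activity depend on phosphorylation by kinases of the CLK and SRPK families. Many of these proteins gather in nuclear speckles. The 7 genes cover a kinase, a cyclin, 3 SR-related proteins, a pseudogene copy of a splice-site recognition gene and a core spliceosome component.

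The sequences before the gene starts of CLK1, CCNL1, PNN and BUD31 are shown because each holds TGACG. This is the core of the cyclic AMP response element bound by CREB and ATF factors. The letters, not the array values, picked these genes, since SFRS18 and RSRC2 were lower as well and had no match. Each line gives the 150 bases before the start, 5′ to 3′ on the gene's strand, from RefSeq on GRCh38.p14. Capitals mark, on either strand, the TGACG core, the ETS core and the CCAAT box spelled out after the sequences. The capital G that opens the PNN line is the end of a CCAAT match, 154 to 150 bases before the start, cut by the printed length. They lie at chr2:200864659-200864808 (minus strand) for CLK1, chr3:157160148-157160297 (minus) for CCNL1, chr14:39175104-39175253 (plus) for PNN and chr7:99408819-99408968 (plus) for BUD31.
CLK1: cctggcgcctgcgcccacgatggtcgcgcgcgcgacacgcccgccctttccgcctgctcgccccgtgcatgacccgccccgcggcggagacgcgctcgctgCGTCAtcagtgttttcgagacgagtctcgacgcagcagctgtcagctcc
CCNL1: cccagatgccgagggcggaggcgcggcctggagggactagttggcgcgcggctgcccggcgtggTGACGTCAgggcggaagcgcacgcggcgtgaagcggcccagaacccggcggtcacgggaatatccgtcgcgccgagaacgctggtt
PNN: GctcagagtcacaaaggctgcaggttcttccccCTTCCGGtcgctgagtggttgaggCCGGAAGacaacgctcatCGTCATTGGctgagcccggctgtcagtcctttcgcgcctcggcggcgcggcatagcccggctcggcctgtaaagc
BUD31: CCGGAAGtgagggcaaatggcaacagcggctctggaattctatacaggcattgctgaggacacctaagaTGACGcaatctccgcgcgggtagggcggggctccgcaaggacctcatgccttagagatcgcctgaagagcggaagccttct

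The 250 bases before the start were searched on both strands in 6 of the 7 genes; CLK1 had 2 windows that held the same match. TGACG was found in 4 of the 6 genes and in 21.2% of all 35116 windows. The full element TGACGTCA, which contains TGACG on both strands, was found in CCNL1 alone among them, 86 to 79 bases before the start, and in 1.65% of all windows. In CLK1 the match lay 49 to 45 bases before the start of the printed window and 146 to 142 before the other listed start, in PNN 75 to 71 and in BUD31 81 to 77. The ETS core CCGGAAG was found in PNN on both strands, in PNISR (the current symbol of SFRS18) and in BUD31, and in 8.52% of all windows. CCAAT was found in PNN and RSRC2 and in 32.0% of all windows, and TATAAA in PNISR and in 10.7%. In PNN a CCAAT match shares 1 base with TGACG. The Gli consensus GACCACCCA was not found in these windows, and was found in 0.199% of all windows. GC content of the members' windows ran from 47.6% to 67.6%, against a median of 58.0% over all windows. It was 62.0% to 67.6% in the genes with TGACG, 57.2% in RSRC2 and 47.6% in PNISR. The shares of all windows were not matched for GC content. The motifs were chosen after the sequences had been read, and a match describes letters only, not binding.

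CLK1 is a dual-specificity kinase that phosphorylates SR proteins and releases them from nuclear speckles. Its probe set (8058127) had log2 values of 8.58, 8.39 and 8.53 in the arrays labelled Gli3T, against 9.28, 9.37 and 9.71 in those labelled empty vector. The groups did not overlap, and empty vector replicate 3 was the highest of all. The means were 8.50 ± 0.10 in the arrays labelled Gli3T and 9.45 ± 0.22 in those labelled empty vector (SD, n = 3 each), a log2 difference of -0.96 ± 0.14 (SE), or 1.94-fold lower. Without empty vector replicate 1 the difference was -1.04.

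CCNL1 encodes cyclin L1, a partner of CDK11 that carries an arginine-serine domain. Its probe set (8091658) read 9.78, 9.66 and 9.71 in the arrays labelled Gli3T, against 10.76, 10.21 and 10.48 in those labelled empty vector. The empty vector arrays spread over 0.55 log2, the widest range of the 7 genes, while those labelled Gli3T lay within 0.11. The difference was -0.77 ± 0.16 log2 (SE), or 1.70-fold lower. It was -0.63 without empty vector replicate 1, where CCNL1 was highest, and -0.90 without replicate 2, where it was lowest of the group.

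The 3 SR-related genes were lower as well. PNN encodes pinin, found at desmosomes and in nuclear speckles, where it binds the splicing activator RNPS1. It (probe set 7974066) read 9.39, 9.24 and 9.20 in the arrays labelled Gli3T, against 10.15, 10.16 and 10.47 in those labelled empty vector. PNN had the largest difference of the 7 genes, -0.98 ± 0.12 log2 (SE) or 1.98-fold lower, and the widest gap between the groups, 0.76 log2.

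SFRS18, now named PNISR, encodes a serine- and arginine-rich protein that interacts with pinin. Its probe set (8128394) read 8.99, 8.82 and 8.96 in the arrays labelled Gli3T, against 9.74, 9.40 and 9.85 in those labelled empty vector. Empty vector replicate 2 lay closest to the arrays labelled Gli3T, and the gap between the groups, 0.40 log2, was the narrowest of the 7. The difference was -0.74 ± 0.15 log2 (SE), or 1.67-fold lower. RSRC2 encodes an arginine- and serine-rich coiled-coil protein. It (probe set 7967304) read 9.59, 9.46 and 9.48 in the arrays labelled Gli3T, against 10.30, 10.08 and 10.52 in those labelled empty vector. SFRS18 and RSRC2 thus placed the empty vector arrays in the same order, with replicate 2 lowest and replicate 3 highest. RSRC2 differed by -0.79 ± 0.13 log2 (SE), or 1.73-fold.

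ZRSR1 is a copy of ZRSR2, whose protein recognises the 3′ splice site of minor, U12-type introns. RefSeq lists it as the pseudogene ZRSR2P1, so its probe set may also hold signal of ZRSR2, and the value is uncertain in that respect. The probe set (8107353) read 8.59, 8.41 and 8.64 in the arrays labelled Gli3T, against 9.17, 9.38 and 9.43 in those labelled empty vector. Here empty vector replicate 1 was the lowest of its group. The difference was -0.78 ± 0.10 log2 (SE), or 1.72-fold lower, and -0.86 without that replicate.

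BUD31 is a core component of the activated spliceosome, conserved from yeast. Its probe set (8134589) read 9.65, 9.62 and 9.73 in the arrays labelled Gli3T, against 10.45, 10.33 and 10.33 in those labelled empty vector. BUD31 had the smallest difference of the 7 genes, -0.70 ± 0.05 log2 (SE) or 1.63-fold lower, and also the smallest error. Its empty vector arrays lay within 0.12 log2 of each other.

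**Figure D1:**
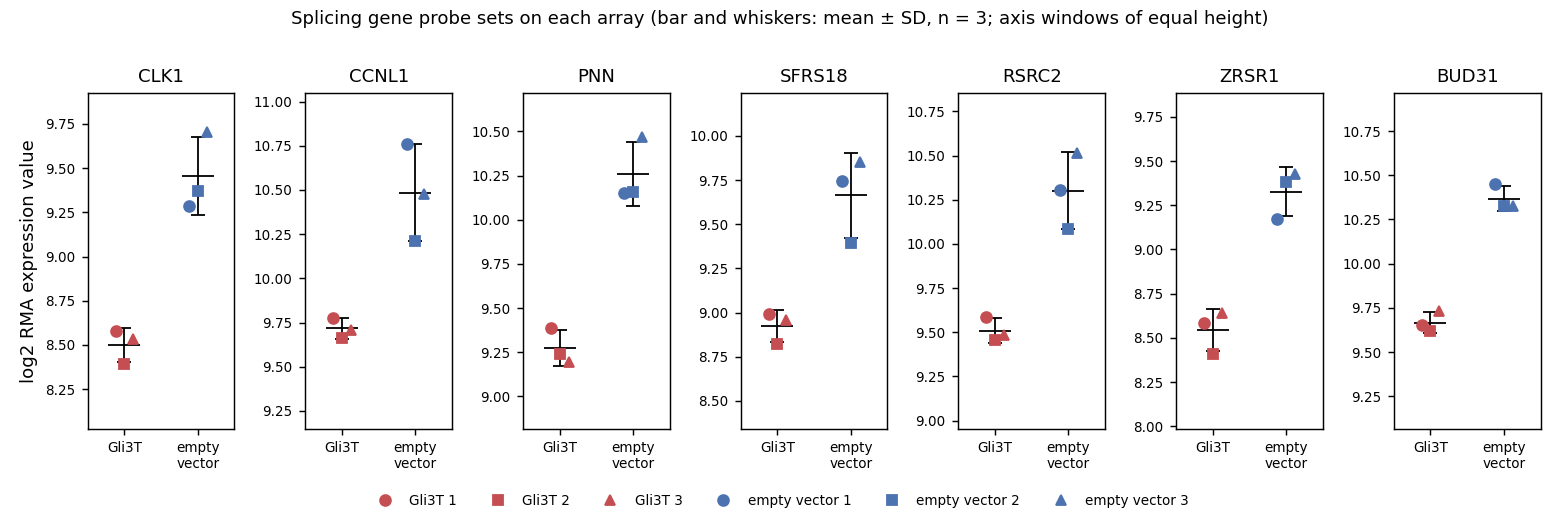
Log2 RMA expression values of the 7 probe sets on each array, with arrays labelled Gli3T in red and left and arrays labelled empty vector in blue and right. Bars and whiskers are means ± SD (n = 3), and every axis spans the same height. All 7 genes show a gap between the groups, from 0.40 log2 in SFRS18 to 0.76 in PNN, and in each gene the empty vector arrays spread more widely.

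The groups did not overlap in any of the 7 genes. Over the whole array, 13.0% of the 32321 probe sets were lower in the arrays labelled Gli3T without overlap, and 2.52% when a difference of at least 1.5-fold was also asked. A limma fit over all probe sets called 2.47% of them in either direction at an adjusted p of 0.05, and 1.65% when a 1.5-fold difference was also asked. The choice of the genes fixed their own count, so nothing is read from it. The median difference of the 7 was -0.78 log2, against -0.05 over all probe sets and -0.82 over the named rows that were lower. PNN had the 316th lowest difference of all probe sets and BUD31 the 705th, and 2.18% of probe sets had a lower difference than BUD31. Each array centred on its own median gave a median of -0.73, and a repeated quantile normalisation -0.80, where the median of all probe sets was 0.01.

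**Figure D2:**
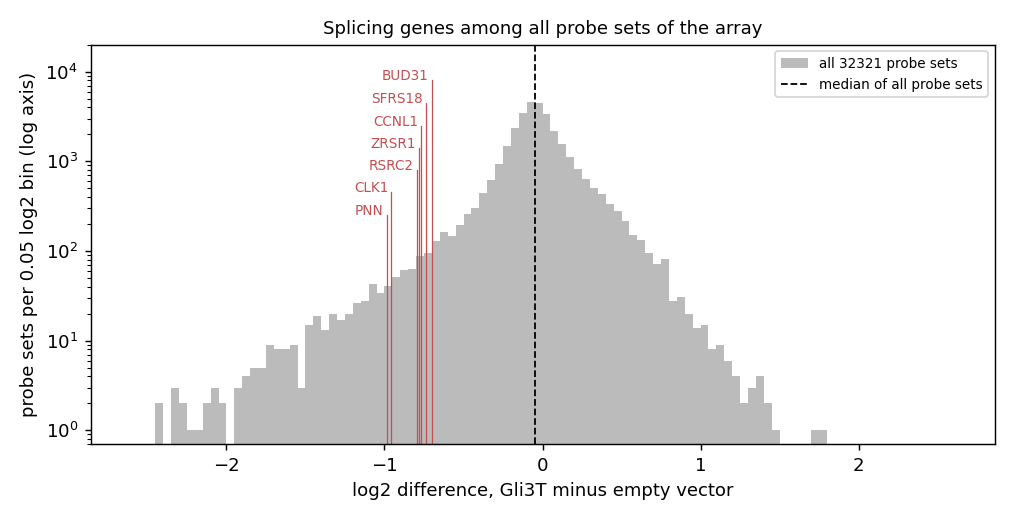
Histogram of log2 differences, Gli3T minus empty vector, for all 32321 probe sets on a logarithmic count axis, with the 7 splicing genes marked by red lines and the median of all probe sets by a dashed line. The genes lie between -0.98 (PNN) and -0.70 (BUD31), in the lower tail but not at its end.

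In order of size the differences ran from PNN through CLK1, RSRC2, ZRSR1, CCNL1 and SFRS18 to BUD31. Neighbours in this order were 0.01 to 0.16 log2 apart, each less than their combined standard error of 0.16 to 0.22. PNN and BUD31, at the ends, were 0.28 apart with a combined standard error of 0.13. They were picked as the largest and smallest of these same values, so nothing is read from that gap. The errors were combined as if independent, although all genes were read on the same arrays. Leaving out empty vector replicate 1 widened the spread among the genes, from -1.04 for CLK1 to -0.63 for CCNL1. Leaving out replicate 2 of that group moved the median of the 7 most, to -0.90.

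**Figure D3:**
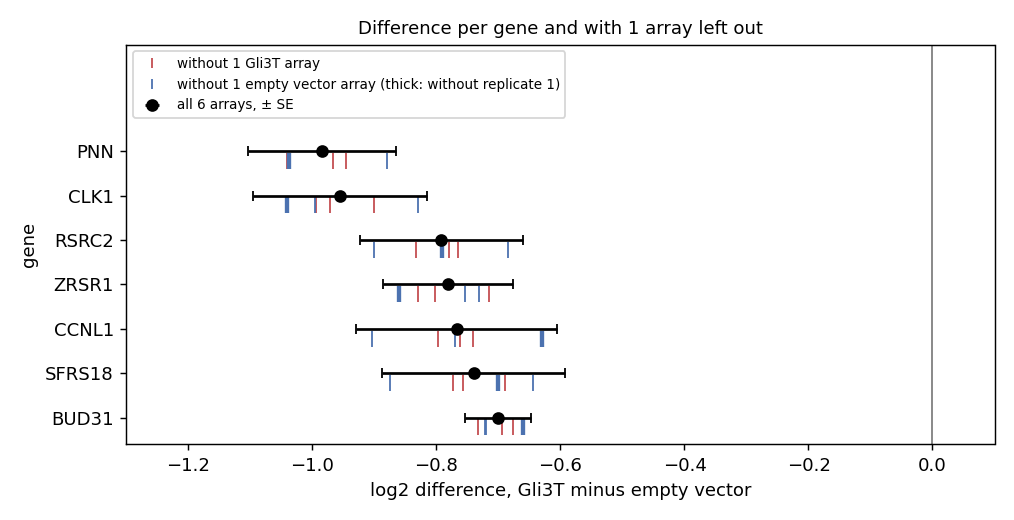
Log2 difference of each gene, Gli3T minus empty vector, with all 6 arrays (black points ± SE) and with 1 array left out (ticks, red for arrays labelled Gli3T, blue for arrays labelled empty vector, thick for empty vector replicate 1). Removing empty vector replicate 1 moves CCNL1 to -0.63 and CLK1 to -1.04.

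The 7 genes were not equally steady within the groups. In the arrays labelled Gli3T their SDs ran from 0.06 to 0.12 log2 with a median of 0.09, against 0.07 to 0.27 with a median of 0.22 in those labelled empty vector. The SD was larger in the empty vector arrays for all 7, as it was for 83.4% of all probe sets, whose median SDs were 0.08 in the arrays labelled Gli3T and 0.18 in those labelled empty vector. Among the arrays labelled Gli3T, replicate 2 was the lowest for 6 of the 7 genes, PNN being the exception, and replicate 1 the highest for 5. Among the empty vector arrays, replicate 3 was the highest for 5, and replicate 1 the highest for CCNL1 and BUD31. Replicate 2 was the lowest for 4, and replicate 1 for CLK1, PNN and ZRSR1.

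The mean profile of the 7 genes over the 6 arrays, each centred on its own mean, was compared with 354 other named probe sets whose mean was at or above the median of all. The highest Pearson correlations over the 6 arrays were those of C20orf111 (current symbol OSER1), at 0.998, the cystine and glutamate exchanger gene SLC7A11, at 0.996, and the zinc finger gene ZNF394, at 0.996. MAP1LC3B, which encodes an autophagosome protein of the LC3 family, and the polo-like kinase gene PLK2 followed at 0.995 and 0.994. C20orf111 differed by -1.11 ± 0.10 log2 (SE) and SLC7A11 by -1.28 ± 0.10, against -0.60 ± 0.09 for ZNF394, -0.60 ± 0.08 for MAP1LC3B and -0.70 ± 0.07 for PLK2. In 4 of these 5 genes, PLK2 being the exception, empty vector replicate 3 was the highest array, and in all 5 replicate 2 was the lowest of that group. The 7 genes themselves correlated with their mean profile at 0.943 (CCNL1) to 0.992 (RSRC2). These values largely repeat the selection, since every named gene was chosen for a difference between the groups, and 2.0% of 16154 probe sets correlated above 0.95.

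**Figure D4:**
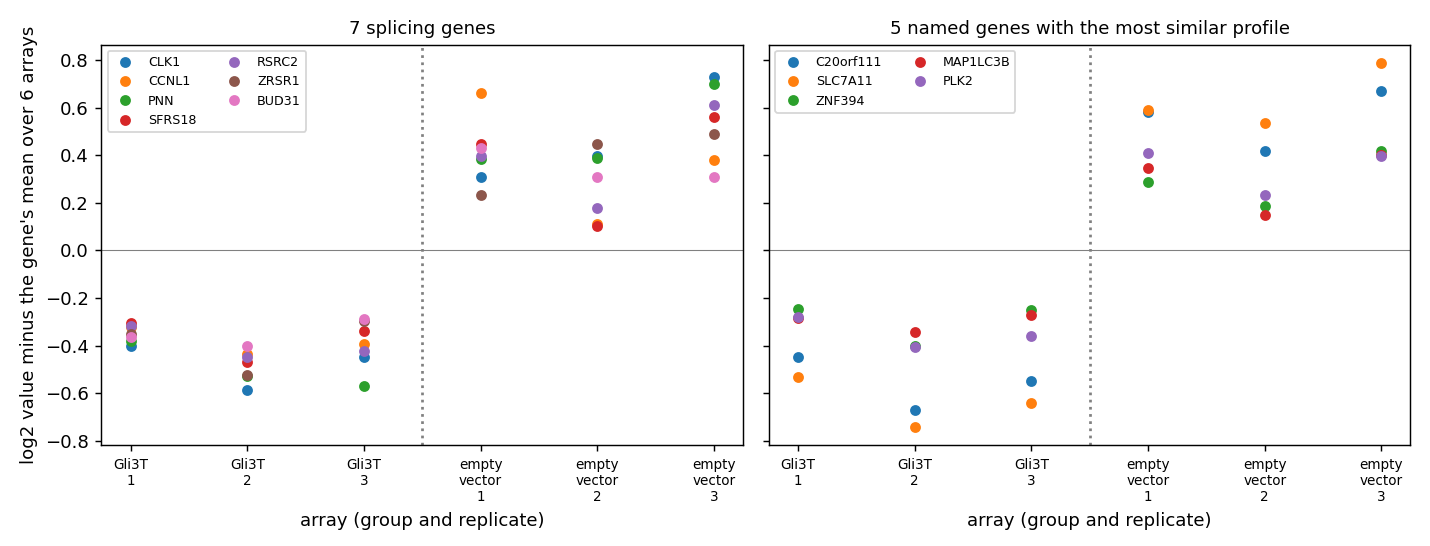
Log2 values minus each gene's mean over the 6 arrays, for the 7 splicing genes (left) and for the 5 named genes with the most similar profile (right), arrays labelled Gli3T left of the dotted line and arrays labelled empty vector right of it. All points lie below 0 in the arrays labelled Gli3T and above 0 in the others, and CCNL1 stands highest in empty vector replicate 1.

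The splicing machinery beyond these genes could be followed only where the authors' deposited table named a probe set. Of 180 genes in 9 lists of splicing kinases, cyclin L partners, SR and SR-related proteins, splice-site recognition, spliceosome, small nuclear ribonucleoprotein, hnRNP and exon junction proteins, the 7 described here were the ones named. The other 173, CLK2, CLK3, CLK4, CCNL2, ZRSR2 and RSRC1 among them, were not analysed here, which says nothing about whether they changed. Outside the lists, 3 further genes of RNA handling were picked after their values had been seen. KIAA0907 (now KHDC4), an RNA-binding protein linked to splicing, read 9.98, 9.78 and 9.91 in the arrays labelled Gli3T, against 10.79, 10.48 and 10.70 in those labelled empty vector. It differed by -0.77 ± 0.11 log2 (SE). CIRBP, a cold-inducible RNA-binding protein, differed by -0.64 ± 0.07. SNUPN, which encodes snurportin-1, the import adaptor that brings spliceosomal small nuclear ribonucleoproteins into the nucleus, went the other way. It read 10.80, 10.70 and 10.82 in the arrays labelled Gli3T, against 10.01, 10.27 and 10.13 in those labelled empty vector, a difference of 0.63 ± 0.08 log2 (SE). Of these 3 genes, 2 were thus lower and 1 higher.

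The place of the 7 genes in the selection could be read from the authors' deposited table itself. All 7 stood in rows where the first sample column held a number below 1.0 and the log2 values began 1 cell later. In the authors' deposited table the 35 cells of these genes in sample columns 2 to 6 lay within 0.0124 log2 of the complete table's values for the preceding sample. Over 135 such rows the number in the first column of the authors' deposited table correlated at 0.996 with the adjusted p of the refitted limma model. In the authors' deposited table it was 0.0161 for BUD31, 0.0168 for PNN, 0.0239 for CLK1, 0.0257 for ZRSR1, 0.0306 for RSRC2, 0.043 for SFRS18 and 0.0454 for CCNL1. The highest such number in the authors' deposited table was 0.0481, and the smallest fall of any named row was -0.60 log2, so CCNL1 lay nearest to the edge by the first measure and BUD31, of the 7, by the second. Of 398 named rows 385 passed an adjusted p of 0.05 and a 1.5-fold difference in the refit, and 149 probe sets that passed both were not in the table.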

How the data were processed

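The log2 expression values were deposited by the authors, in a complete table of probe sets and in a table of selected genes. Per the submitters' processing notes RMA, oligo and limma were used, with no versions stated, and the array annotation and genome build are not given in the sources used here. Of 405 named rows 398 had values in the complete table, which was the source of every value unless stated. Rows of the selected table with a first sample value of at most 1.0 were read as displaced, and 1 unnamed column was not used. Groups came from sample titles. Means, SDs and differences were computed here, with the SE of a difference taken from the SDs of both groups.

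limma 3.58.1 in R 4.3.3 (lmFit, eBayes, Benjamini-Hochberg over 32321 probe sets, group as the term) gave the counts over all probe sets. It was also run on simulated data with the same spread in both groups, which does not cover the unequal spread of these arrays. On the deposited values the fit called 798 probe sets (2.47%) at an adjusted p of 0.05. Symbols were updated through RefSeq (363 current, 40 synonyms, 2 not found). Genes named by rule besides the 7 were GLI3, PTCH1, called genes of the splicing lists and paralogs (none had a named probe set), and the 5 most similar profiles. ITGB4 was the marker with a named probe set, and KIAA0907, CIRBP and SNUPN were chosen after their values were seen. The 7 genes and the lists were chosen with earlier results of these data known. Python 3.11.15 and matplotlib 3.10.9 drew the figures.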

Additional observations from a re-analysis of the deposited data

How the results depend on the processing

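The median difference of the 7 genes, -0.78 log2, was -0.80 to -0.73 under both rescalings and the deposited selected table (-0.75, from 2 arrays per group). With 1 array left out it was -0.90 to -0.73. The value of -0.90, without empty vector replicate 2, lay more than 1 SD (0.114) from the main value. That SD is the spread within groups of the 7 genes' median per array. The replicate block cannot change the median in this balanced layout, so it is no check of it. With 1 of the genes left out, a setting chosen after seeing the data, it was -0.79 to -0.77. Of the single-gene differences 69 moved by less than 1 SD and 1 by more, PNN at -0.83 in the selected table. The cells used there hold replicates 1 and 2 of each group. Empty vector replicate 3, the highest array for PNN, was readable there but was not used. In the complete table PNN was at -0.95 without Gli3T replicate 3 alone. With 3 arrays per group, neither the replicate block nor 1 left-out array can move a single-gene difference by 1 SD. Only the rescalings and the selected table could have done so. The number reversed was 0, which the gap between the groups fixes for left-out arrays. The count of 798 probe sets called over the array was far less steady. It moved least with arrays centred on their medians (559), repeated quantile normalisation (939), a 1.5-fold limit (534) and without empty vector replicate 2 (548). It was 240 with the replicate block (51 higher, 189 lower, against 454 and 344), 1292 with a mean trend, 7104 with array weights, where empty vector replicate 1 had a weight of 0.133, 1446 among probe sets at or above the median level, and 31 at an adjusted p of 0.01. With 1 array left out it ran from 0 to 2178, the highest without empty vector replicate 1. It was 69 without empty vector replicate 3, and 0, 1 and 0 in limma without Gli3T replicates 1, 2 and 3, where 3471, 3751 and 3469 probe sets had an unadjusted p under 0.05. The cause was not tested. Deviations of same-numbered arrays correlated at -0.30, -0.14 and 0.04, and 0 of 3 arrays labelled Gli3T correlated best with its own number, so the numbers were not taken as pairs. The list counts had no other gene to count, every row served as the fit because no annotation was given, and each gene had 1 probe set, so those alternatives were not run. Signal over background was not known.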
